A study of Mus musculus with 4 samples.

Results

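Genes for the uptake, intracellular binding and activation of fatty acids in the absorptive cells of the gut were followed in 4 RNA-Seq libraries of mouse intestine. The 7 genes were taken by symbol from a list of known fatty acid handling genes (Fabp1, Fabp2, Fabp5, Dbi, Acsl5, Slc27a2 and Slc27a4), out of 20798 genes to which reads could be given. RNA of total small intestine or colon tissue from C57BL/6 mice, 9 to 10 weeks old, had been sequenced on the SOLiD platform. The cDNA fragmented libraries (1 from small intestine and 1 from colon) were made from polyadenylated RNA by oligo-dT primed SMART cDNA synthesis. The other pair, again with 1 library per tissue, was made with the SOLiD Whole Transcriptome Analysis Kit from RNA that the labels call depleted of ribosomal RNA. With 36419942 and 37466674 reads of 35 colours, these libraries do not match in depth or read length the RNA fragmented libraries that the study describes, so details of that protocol were not carried over to them. The methods give jejunum as the small intestine tissue, distal colon as the colon tissue and 6 mice in all, and both tissues are said to come from the same individuals, but the number of mice behind a library was not given in the sources used here. With 1 library per tissue and protocol there was no replicate error, so the intervals below cover counting error only.

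Long-chain fatty acids set free from dietary fat enter enterocytes at the brush border, are bound in the cytosol by small fatty acid binding proteins and are coupled to coenzyme A before they are built into triglyceride again. Fabp2 (intestinal type) and Fabp1 (liver type) are the classical binding proteins of the enterocyte, Fabp5 is the epidermal type, and Dbi is the acyl-CoA binding protein, which carries the activated form. Acsl5 encodes a long-chain acyl-CoA synthetase, and Slc27a2 and Slc27a4 encode fatty acid transport proteins that also have acyl-CoA synthetase activity. Small intestine absorbs most dietary fat, whereas colon absorbs mainly water, electrolytes and short-chain fatty acids.

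Of the 7 genes, 5 were more than 3-fold higher in small intestine than in colon in the cDNA fragmented libraries and the same 5 genes in the rRNA-depleted libraries. These were Fabp1, Fabp2, Acsl5, Slc27a2 and Slc27a4. Dbi and Fabp5 were not past 3-fold in either direction, and none of the 7 genes was past 3-fold in colon. Levels are given as RPKM, which scales a gene's reads to its exonic length in kilobases and to the number of uniquely placed reads of the library. The rule set the RPKM of one tissue over the RPKM of the other tissue plus a penalty of 1. Among 16467 genes present in the cDNA fragmented libraries, 2.72% passed this rule towards small intestine and 3.2% towards colon. Among 15068 genes present in the rRNA-depleted libraries the shares were 3.72% and 6.61%. This split depended on the scaling, since 45.9% of all genes past 3-fold were higher in small intestine with cDNA fragmentation and 36.0% with rRNA depletion, but 59.8% and 53.5% with TMM scaling, under which the same 5 of the 7 genes passed. Together the 7 genes took 3.71% of the uniquely placed reads in cDNA fragmented small intestine, against 0.385% in its colon counterpart. In the rRNA-depleted libraries these shares were 0.468% and 0.0595%.

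**Figure D1:**
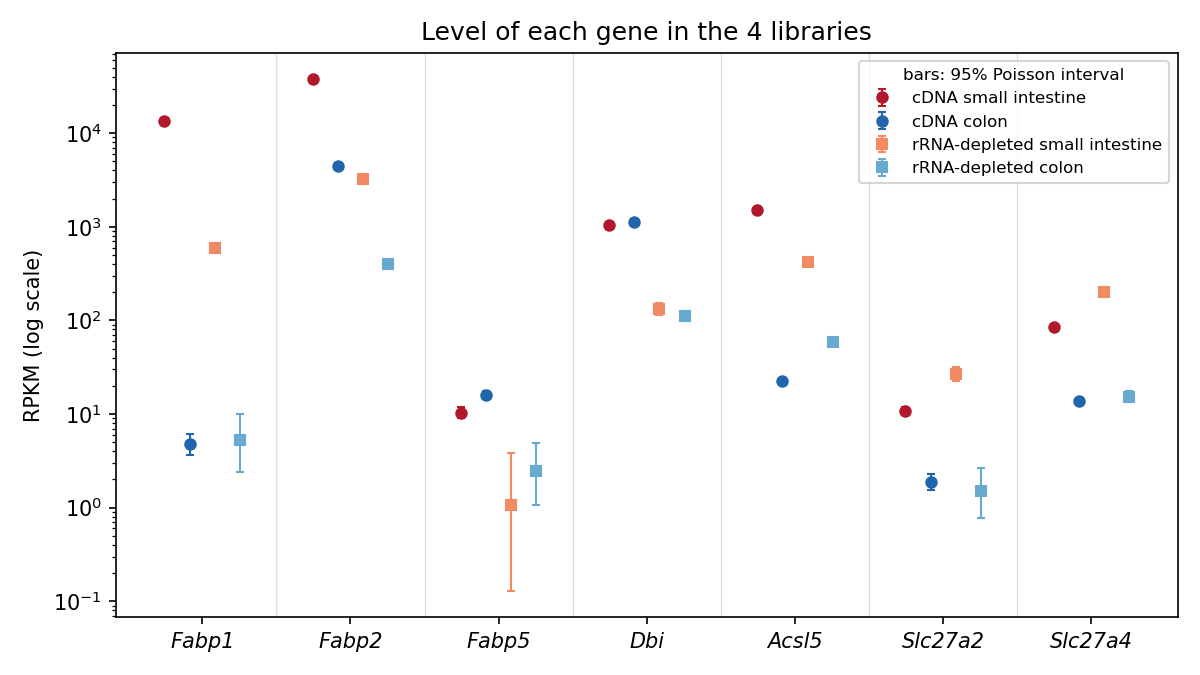
Level of each of the 7 genes (RPKM, log scale) in the 4 libraries, with exact 95% Poisson intervals as bars. Fabp2 has the highest level of the 7 genes in each library, from 403 RPKM in rRNA-depleted colon to 38180.3 RPKM in cDNA fragmented small intestine, while Dbi has nearly the same level in both tissues of a protocol.

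The libraries differed in depth and in tissue markers. There were 22484041 (small intestine) and 24798934 (colon) uniquely placed reads with cDNA fragmentation but 2035386 and 3478387 with rRNA depletion. All 6 jejunal enterocyte markers (Sis, Lct, Alpi, Slc2a2, Treh and Apoa4) were past 3-fold in small intestine in both protocols. Of 5 colonocyte markers, 4 were past 3-fold in colon in the cDNA fragmented libraries and 5 in the rRNA-depleted libraries. Of 3 ileal markers, 2 and 1 were past 3-fold in small intestine. Pancreatic acinar markers stood against the labels in opposite ways. Their summed level was 0.478 RPKM in small intestine and 469 RPKM in colon in the cDNA fragmented libraries, and 2557 RPKM and 7.11 RPKM in the rRNA-depleted libraries, with all 5 markers past 3-fold each time. Summed smooth muscle markers were higher in colon, with 221 and 834 RPKM in the cDNA fragmented libraries and 191 and 1793 RPKM in the rRNA-depleted libraries. The part of these cell types in the values of the 7 genes was not tested, and in bulk tissue fewer cells of a type and less RNA per cell cannot be told apart. The median small intestine to colon ratio over genes with at least 50 reads in both tissues was -0.28 on the log2 scale in the cDNA fragmented and -0.14 in the rRNA-depleted libraries, so that a gene at equal RPKM lay above the typical gene in small intestine.

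Of the binding proteins, Fabp2 was the most abundant. It lies on chromosome 3 of mm9 (chr3:122598310-122602424, plus strand) with 645 exonic bases in 4 exon blocks. Its level was 38180.3 RPKM in cDNA fragmented small intestine (553698 reads) and 4468 RPKM in colon (71461 reads), and 3249 RPKM (4266 reads) and 403 RPKM (905 reads) in the rRNA-depleted libraries. Both small intestine values were above the colon value of the same protocol. The tissue ratio (small intestine over colon) came to 8.55 (95% interval 8.48 to 8.61) and 8.06 (7.50 to 8.66), and the difference between the protocols on the log2 scale, 0.09 (-0.02 to 0.19), did not exceed counting error. By RPKM Fabp2 ranked at place 2 of all genes in cDNA fragmented small intestine and at place 12 in rRNA-depleted small intestine.

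Fabp2 was also among the most abundant genes in colon, at place 14 in the cDNA fragmented and place 134 in the rRNA-depleted library. In the same cDNA fragmented colon library the 6 jejunal enterocyte markers summed to 4.34 RPKM, with none above 2.52 RPKM. They summed to 87.7 RPKM in the rRNA-depleted colon library. The small intestine to colon ratios of these markers ran from 27.1 to 4637 in the cDNA fragmented and from 34.05 to 119 in the rRNA-depleted libraries, all above the ratio of Fabp2 in the same protocol.

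Fabp1, the liver-type binding protein, showed the largest tissue difference of the 7 genes. It lies on chromosome 6 (chr6:71149882-71155017, plus strand) with 492 exonic bases in 4 exon blocks. Its level was 13459 RPKM in cDNA fragmented small intestine (148885 reads) and 4.75 RPKM in colon (58 reads), and 600.2 RPKM (601 reads) and 5.26 RPKM (9 reads) in the rRNA-depleted libraries. High values were thus seen in both small intestine libraries and values near 5 RPKM in both colon libraries. The ratio was 2831 (2190.0 to 3729) in the cDNA fragmented libraries and 114 (59.7 to 251) in the rRNA-depleted libraries. The ratios differed between protocols by 4.63 on the log2 scale (3.61 to 5.65). The colon levels of the 2 protocols had overlapping intervals (3.61 to 6.15 and 2.40 to 9.98 RPKM), while the small intestine level was 22.4-fold higher in the cDNA fragmented library. Levels of the 2 protocols were not on a common scale. The cDNA fragmented over the rRNA-depleted level was 11.7 in small intestine and 11.1 in colon for Fabp2, but 0.423 and 0.890 for Slc27a4. The tissue in which Fabp1 departed thus cannot be told from these levels.

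The balance of both binding proteins differed between the tissues. Per exonic length, Fabp2 exceeded Fabp1 by 2.84-fold (2.82 to 2.85) in cDNA fragmented small intestine and by 940-fold (727 to 1238) in colon. In the rRNA-depleted libraries Fabp2 exceeded Fabp1 by 5.41-fold (4.97 to 5.91) and 76.7-fold (40.2 to 168). Fabp1 made up 25.4% of the summed RPKM of the 9 measured Fabp genes in cDNA fragmented small intestine and 14.4% in rRNA-depleted small intestine, but 0.1% and 1.12% in colon. Fabp2 held most of the sum in each library, from 72.2% to 94.4%.

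The sequences before the start sites are shown for Fabp1, which had the largest tissue difference, and for Fabp2, the most abundant gene. The 250 bases before each start are taken from RefSeq (GRCm38.p6, a later build than mm9), written 5′ to 3′ on the strand of the gene, and capitals mark the motifs found in a search of both strands. The search used AGGTCA for nuclear receptors and AGATAA for factors of the GATA family. TTTATNG was used for CDX factors. GTTAAT was used for HNF1, and the TATA box was searched as TATAAA. The windows are chr6:71199629-71199878 (plus) for Fabp1 and chr3:122894822-122895071 (plus) for Fabp2. Matched to mm9, the Fabp1 window ended 9 bases before the first exon block to which reads were assigned, whereas the Fabp2 window ended 320 bases before it, so the RefSeq start of Fabp2 lies upstream of the measured exons.
Fabp1: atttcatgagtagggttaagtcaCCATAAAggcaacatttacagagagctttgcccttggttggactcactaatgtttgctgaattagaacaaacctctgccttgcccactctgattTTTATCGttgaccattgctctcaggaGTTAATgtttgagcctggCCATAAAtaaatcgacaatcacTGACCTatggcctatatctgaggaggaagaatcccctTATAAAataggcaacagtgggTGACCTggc
Fabp2: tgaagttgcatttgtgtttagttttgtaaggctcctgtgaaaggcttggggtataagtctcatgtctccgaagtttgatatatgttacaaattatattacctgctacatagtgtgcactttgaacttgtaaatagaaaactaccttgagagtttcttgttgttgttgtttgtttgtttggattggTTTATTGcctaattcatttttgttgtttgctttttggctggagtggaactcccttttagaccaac
The Fabp1 window held 2 nuclear receptor motifs, both on the opposite strand, 67 to 62 and 9 to 4 bases before the start site. It also held 3 CDX motifs, 1 HNF1 motif and a TATA box, the last at 30 to 25 bases before the start. No searched motif overlapped another. The Fabp2 window held 1 TTTATNG, 65 to 59 bases before the RefSeq start on the plus strand. The Slc27a2 window held 1 AGGTCA and that of Slc27a4 held none of the motifs. The first exon block of Slc27a4 had 5 reads in rRNA-depleted small intestine and 0 in each other library. Its window thus lies before a start with almost no reads. The window of Acsl5 also held none of the motifs. It lies directly before the first exon block of Acsl5, which held few of the gene's reads in either tissue. The motifs are not compared between genes with and without a tissue difference. Among 32851 windows of the same length, 14.02% held AGGTCA, 9.99% AGATAA, 9.81% TTTATNG, 6.43% GTTAAT and 12.4% TATAAA. The share of G and C was 42.8% in the Fabp1 window and 35.6% in that of Fabp2, against a median of 52.4% over all windows. Entries were matched for 6 of the 7 genes, and Fabp5 was not among them.

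Dbi and Fabp5 did not show the difference of the other binding proteins. Dbi (chr1:122009857-122017656, minus strand, 728 exonic bases in 5 blocks) had 1047 RPKM in cDNA fragmented small intestine (17145 reads) and 1131 RPKM in colon (20414 reads), and 132 RPKM (196 reads) and 111 RPKM (282 reads) in the rRNA-depleted libraries. The tissue values of a protocol lay close together and their order changed between protocols. The ratio was 0.926 (0.908 to 0.945) in the cDNA fragmented libraries and 1.19 (0.985 to 1.43) in the rRNA-depleted libraries. Relative to the median gene, the cDNA fragmented difference of Dbi, which was -0.11 on the log2 scale, became 0.17, so its sign depended on the scaling. Fabp2 exceeded Dbi per length by 36.5-fold in cDNA fragmented small intestine but by 3.95-fold in colon, and by 24.6-fold and 3.62-fold in the rRNA-depleted libraries.

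The exon blocks of Dbi included a pair of alternative starts. The upstream block (chr1:122017522-122017656, 135 bases) had 242 RPKM in cDNA fragmented small intestine and 375 RPKM in colon. The downstream one (chr1:122017339-122017496, 158 bases) had 1.69 and 5.61 RPKM, from 6 and 22 reads, and 0 and 2 reads in the rRNA-depleted libraries. Reads at the start of Dbi thus came almost wholly from the upstream block in both tissues. Its ratio of small intestine to colon in the cDNA fragmented libraries was 0.646 (0.589 to 0.708) in the upstream block and 1.02 (0.990 to 1.05) in the last block.

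Fabp5 (chr3:10012606-10016610, plus strand, 932 exonic bases) was the lowest of the binding proteins in small intestine. It had 10.4 RPKM in cDNA fragmented small intestine (217 reads) and 16.01 RPKM in colon (370 reads), and 1.05 RPKM (2 reads) and 2.47 RPKM (8 reads) in the rRNA-depleted libraries. The colon value was the higher one in each protocol, with a ratio of 0.647 (0.545 to 0.767) in the cDNA fragmented libraries. The size of this difference depended on the scaling, since the ratio was 0.855 with median-of-ratios and 0.823 with TMM factors. In the rRNA-depleted libraries the ratio of 0.427 had an interval from 0.0442 to 2.14, so no difference was detectable at that depth.

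Acsl5, the acyl-CoA synthetase, was higher in small intestine in both protocols, by different amounts. It lies on chromosome 19 (chr19:55327859-55371118, plus strand) with 3151 exonic bases in 22 exon blocks. Its level was 1498 RPKM in cDNA fragmented small intestine (106113 reads) and 22.6 RPKM in colon (1768 reads), and 420.1 RPKM (2694 reads) and 58.3 RPKM (639 reads) in the rRNA-depleted libraries. In small intestine the cDNA fragmented level was the higher one, and in colon the rRNA-depleted level. The ratio was 66.2 (63.2 to 69.4) and 7.20 (6.61 to 7.87), a difference between protocols of 3.20 on the log2 scale (3.06 to 3.34).

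The transport proteins were less abundant than Acsl5 and were both higher in small intestine. Slc27a4 (chr2:29658200-29673042, plus strand, 4008 exonic bases in 13 blocks) had 85.0 RPKM in cDNA fragmented small intestine (7658 reads) and 13.7 RPKM in colon (1358 reads), and 201 RPKM (1637 reads) and 15.4 RPKM (214 reads) in the rRNA-depleted libraries. Slc27a2 (chr2:126378760-126413979, plus strand, 2301 exonic bases in 10 blocks) had 10.8 RPKM (9.96 to 11.8) and 1.89 RPKM (1.55 to 2.29) in the cDNA fragmented libraries, and 26.9 RPKM (126 reads) and 1.499 RPKM (12 reads) in the rRNA-depleted libraries. The small intestine value was the higher one for both genes in each protocol. The ratio of Slc27a4 was 6.22 (5.87 to 6.59) in the cDNA fragmented libraries and 13.1 (11.3 to 15.1) in the rRNA-depleted libraries. That of Slc27a2 was 5.73 (4.66 to 7.11) and 17.9 (9.92 to 35.7). In contrast to Fabp1 and Acsl5, both had the larger ratio in the rRNA-depleted libraries, and the cDNA fragmented minus rRNA-depleted difference was -1.07 on the log2 scale (-1.29 to -0.85) for Slc27a4 and -1.65 (-2.55 to -0.74) for Slc27a2. Slc27a4 exceeded Slc27a2 per length by 7.84-fold (7.19 to 8.55) and 7.22-fold (5.93 to 8.87) with cDNA fragmentation, and by 7.46-fold (6.22 to 9.01) and 10.2-fold (5.74 to 20.1) in the rRNA-depleted ones, with overlapping intervals throughout. The first exon block of Slc27a2 overlaps the annotated gene Gm16762.

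**Figure D2:**
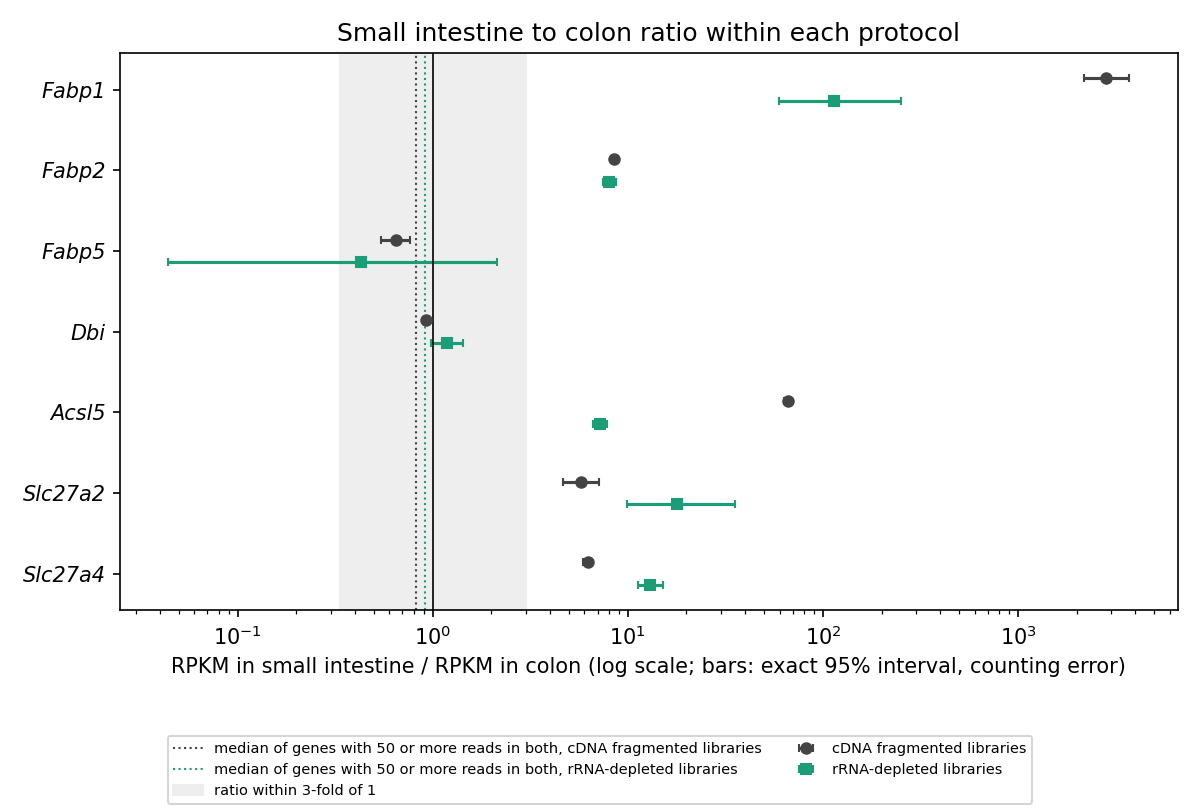
Ratio of RPKM in small intestine to RPKM in colon (log scale) for each gene within the cDNA fragmented libraries (circles) and the rRNA-depleted libraries (squares), with exact 95% intervals for counting error. Fabp1, Fabp2, Acsl5, Slc27a2 and Slc27a4 lie to the right of the shaded 3-fold range in both protocols, and the dotted lines show the median gene of each protocol, 0.821 and 0.911.

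By level, Fabp2 came before the other 6 genes in each library, and the order of the others differed between the tissues. In cDNA fragmented small intestine Fabp2 was followed by Fabp1, Acsl5, Dbi, Slc27a4, Slc27a2 and Fabp5, of which the neighbours Slc27a2 and Fabp5 had overlapping intervals (9.96 to 11.8 and 9.02 to 11.8 RPKM). In cDNA fragmented colon the order was Fabp2, Dbi, Acsl5, Fabp5, Slc27a4, Fabp1 and Slc27a2. In rRNA-depleted small intestine it was Fabp2, Fabp1, Acsl5, Slc27a4, Dbi, Slc27a2 and Fabp5, and in rRNA-depleted colon Fabp2, Dbi, Acsl5, Slc27a4, Fabp1, Fabp5 and Slc27a2, where Fabp5 overlapped with both of its neighbours.

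When all 4 libraries were fitted together on the log2(RPKM + 1) scale with protocol as a term (limma), 5 of the 7 genes passed an adjusted p of 0.05, all higher in small intestine, against 4.96% of 13844 genes tested that passed in this direction and 5.49% that passed in colon. The spread in this fit comes from the disagreement between the protocols and not between mice. With 1 residual degree of freedom per gene, limma drew each SE largely from the trend over all genes, so that an SE is not the gene's own disagreement between protocols. Fabp1 differed by 9.13 ± 0.74 (SE, adjusted p = 4.78e-06), Acsl5 by 4.68 ± 0.56 (adjusted p = 0.000116), Slc27a4 by 3.34 ± 0.38 (adjusted p = 7.03e-05), Fabp2 by 3.32 ± 0.49 (adjusted p = 0.00069) and Slc27a2 by 2.94 ± 0.45 (adjusted p = 0.000894). Dbi, with 0.33 ± 0.37 (adjusted p = 0.654), and Fabp5, with -0.45 ± 0.42 (adjusted p = 0.581), did not pass. On the same scale without the fit, the median difference of the 7 genes was 2.55 in the cDNA fragmented and 3.01 in the rRNA-depleted libraries, and that of all genes present was -0.16 and -0.30.

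The tissue differences were followed along the transcripts. Fabp2 exceeded 3-fold in each of its 4 exon blocks in both protocols, with block ratios of 7.58 to 8.98 in the cDNA fragmented and 6.81 to 9.93 in the rRNA-depleted libraries. Fabp1 also exceeded 3-fold in each of 4 blocks, from 2335 to 4574 and from 59.8 to 199, which rest on 4 to 40 and on 1 to 5 colon reads per block. Of the 22 blocks of Acsl5, 21 exceeded 3-fold in each protocol. The exception was the first block, 798 non-coding bases (chr19:55327859-55328656), which had 22 and 16 reads in the cDNA fragmented and 26 and 30 reads in the rRNA-depleted libraries. Block 8 rested on 4 and 1 reads in the rRNA-depleted libraries, and the interval of its ratio (0.676 to 337) included 1.

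Along Acsl5 the cDNA fragmented ratio fell towards the 3′ end. It was 106 (94.9 to 119) over blocks 2 to 8, 82.9 (74.3 to 92.9) over blocks 9 to 15 and 50.5 (47.6 to 53.7) over blocks 16 to 22, and ran from 122 in block 2 to 38.3 in block 22, the non-coding last block. In the rRNA-depleted libraries the ratio was 9.14 (7.59 to 11.1), 6.43 (5.30 to 7.84) and 7.08 (6.27 to 8.01), below the cDNA fragmented ratio in each stretch. The cDNA fragmented ratio of Slc27a4 likewise was 15.1 (10.4 to 22.7) over blocks 2 to 5, 6.36 (5.69 to 7.12) over blocks 6 to 12 and 5.87 (5.47 to 6.29) in block 13, the last and longest. Its rRNA-depleted ratio was 12.7 (8.02 to 21.1), 13.6 (10.1 to 18.8) and 12.9 (10.8 to 15.5). No such fall was seen for Slc27a2, with 5.39 (3.73 to 7.99) over blocks 1 to 5 and 5.82 (4.52 to 7.58) over blocks 6 to 10, or for Fabp2, with 8.60 (8.49 to 8.71) over blocks 1 to 2 and 8.47 (8.39 to 8.56) over blocks 3 to 4. The intervals of the protocols overlapped for Slc27a4 over blocks 2 to 5 and did not overlap over blocks 6 to 12 and in block 13.

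**Figure D3:**
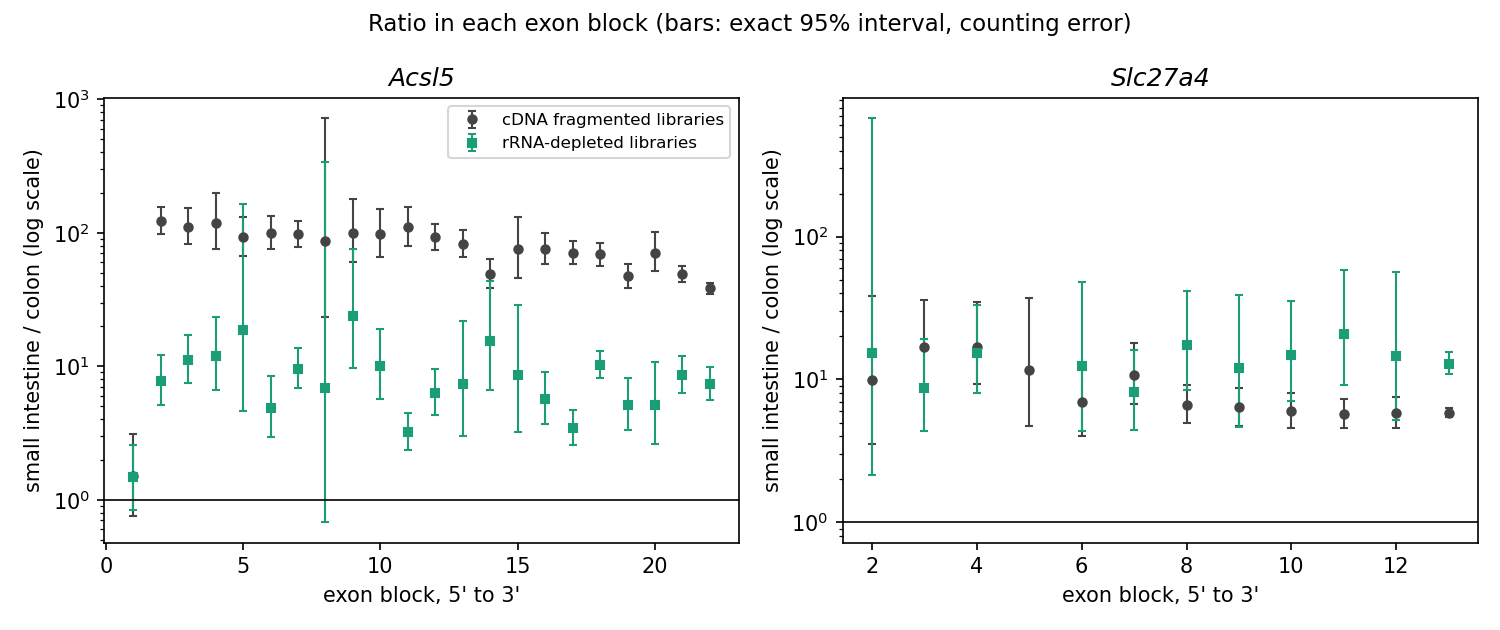
Small intestine to colon ratio (log scale) in each exon block of Acsl5 and Slc27a4, from 5′ to 3′, in the cDNA fragmented (circles) and rRNA-depleted libraries (squares), with exact 95% intervals for counting error. Blocks with no colon read have no point. The cDNA fragmented ratio of Acsl5 falls from 122 in block 2 to 38.3 in block 22.

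Reads beyond the midpoint of the exonic length made up 70.1% of the Acsl5 reads in cDNA fragmented small intestine (69.8 to 70.3, Clopper-Pearson) and 80.4% in colon (78.5 to 82.3), and 71.0% and 73.7% in the rRNA-depleted libraries. Genes of 2000 to 5000 exonic bases had a median share of 65.5% and 68.0% in the cDNA fragmented and of 52.8% and 50.7% in the rRNA-depleted libraries. The near-empty first block of Acsl5, 798 of its 3151 exonic bases, lies before its midpoint. Its shares are therefore not directly comparable with these medians. Shares of Slc27a4 were 68.1%, 72.2%, 66.6% and 67.3% in the same order of libraries. The share of Dbi was above that of short genes in each library, from 72.0% to 82.7%, with the near-empty second block lying before its midpoint. The share of Fabp1 was 43.7% in cDNA fragmented and 21.5% in rRNA-depleted small intestine, whereas the median of genes up to 1000 bases was 61.6% and 59.9%.

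The profile of Fabp2 was similar in both tissues of a protocol and differed between protocols. In both rRNA-depleted libraries its reads piled up in bins 1, 5 and 9 of 10 equal bins of the exonic length, with 25.5%, 23.1% and 24.99% in small intestine and 27.1%, 24.8% and 18.9% in colon. In the cDNA fragmented libraries these bins held 3.56%, 10.8% and 7.02% in small intestine and 2.997%, 10.7% and 6.14% in colon. A single start point (a distinct position and strand) held 9.07% of the Fabp2 reads of rRNA-depleted small intestine and 12.2% of those of colon, but 0.334% and 0.375% in the cDNA fragmented libraries. Slc27a4 had the like, with 16.4% and 12.1% of its rRNA-depleted reads at 1 start point, and so had Dbi, with 18.4% and 13.1%. In rRNA-depleted small intestine the share was 10.6% for Fabp1 and 5.20% for Acsl5. Such pile-ups were thus not particular to Fabp2 and Slc27a4.

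**Figure D4:**
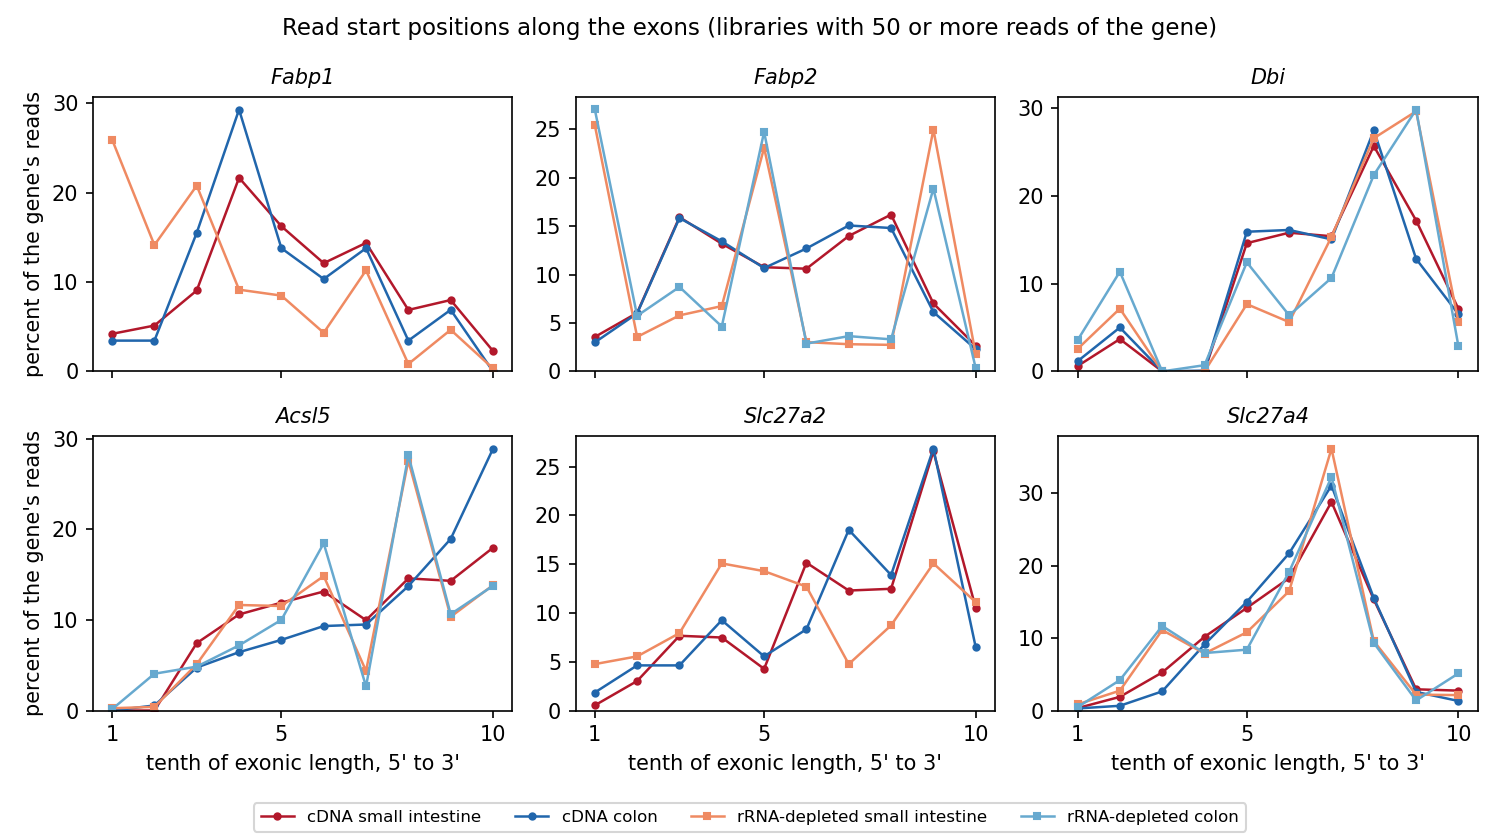
Share of each gene's reads (percent) that start in each of 10 equal bins of the exonic length, from 5′ to 3′, for libraries with at least 50 reads of the gene. Fabp2 reads of both rRNA-depleted libraries peak in the same bins, and Acsl5 reads of cDNA fragmented colon rise to 28.9% in the last bin against 18.0% in small intestine.

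In cDNA fragmented small intestine most possible start points of the most abundant genes were occupied. Fabp2 had 496 reads per start point in cDNA fragmented small intestine and 71.0 in colon, and 86.5% and 78.0% of its possible start points were occupied. Possible start points were taken as all exonic bases on both strands. On each strand, a read of 35 bases inside an exon block can start at 509 of the 645 bases of Fabp2. For Fabp1 it can start at 356 of 492 bases. Reads across junctions can start elsewhere, but were 0.857% and 0.585% of the Fabp2 reads. The shares of possible start points given here thus understate the occupancy. Counted by start points in place of reads, the ratio of Fabp2 was 1.16 in the cDNA fragmented libraries, below 3-fold, and 3.08 in the rRNA-depleted libraries. In cDNA fragmented small intestine 76.0% of the possible start points of Fabp1 and 61.0% of those of Acsl5 were occupied, and by start points their cDNA fragmented ratios fell from 2831 to 15.4 and from 66.2 to 3.38. In the rRNA-depleted libraries they were 29.6 and 4.04, with 12.3% and 9.41% of the possible start points of both strands occupied in small intestine. That library kept strand and had 0 antisense reads of either gene, so only 1 strand could be occupied. Its shares are therefore not directly comparable with the cDNA fragmented ones. Start points gave 3.50 and 6.36 for Slc27a4, and 4.79 and 12.9 for Slc27a2, in the same order of protocols.

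Reads of the 7 genes came from the coding strand where strand was kept. Over all genes, 98.3% and 98.2% of the rRNA-depleted reads were in sense, and 48.3% and 48.2% of the cDNA fragmented reads, which carry no strand. In rRNA-depleted small intestine, 0 of 9522 reads of the 7 genes were antisense. In rRNA-depleted colon 2 of 2069 were, 1 in Acsl5 and 1 in Slc27a4. For Fabp2 in small intestine the absence among 4266 reads allows an antisense share of up to 0.0864% (Clopper-Pearson). No window of 35 bases within the exon blocks of the 7 genes had a copy with at most 1 base difference in the exons of another gene, whereas the matching of reads had allowed up to 3 colour mismatches. Copies outside annotated exons were not searched.

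Other genes of fatty acid handling were counted from lists of 39 measured genes. Of these, 7 were past 3-fold in small intestine and 2 in colon in the cDNA fragmented libraries, and 6 and 3 in the rRNA-depleted libraries, with a median log2 difference of 0.01 and 0.17. Past 3-fold in small intestine in both protocols were 6 genes, and 1 was in colon. Of 13 genes of re-esterification, 4 were past 3-fold in small intestine in both protocols and none in colon in both.

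Mogat2, which joins an activated fatty acid to monoacylglycerol, had 556 RPKM in small intestine and 9.58 RPKM in colon with cDNA fragmentation, and 314 and 6.17 RPKM in the rRNA-depleted libraries. Dgat1, which makes triglyceride, had 118 and 17.2 RPKM, and 131 and 7.54 RPKM. Dgat2 had 84.6 and 24.3 RPKM, and 189 and 33.1 RPKM. All 3 acyltransferases were thus higher in small intestine in each protocol, as was Agpat9, an acyltransferase acting on glycerol phosphate, with 36.8 and 3.13 RPKM, and 47.6 and 7.29 RPKM. Gpam, which acts at the same step as Agpat9, was past 3-fold in colon in the rRNA-depleted libraries, with 5.90 and 24.9 RPKM, and had 0.848 and 2.90 RPKM in the cDNA fragmented libraries.

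Among 6 other Fabp genes, Fabp6, the ileal binding protein for bile acids, was past 3-fold in small intestine in both protocols, with 1204 and 33.2 RPKM, and 311 and 5.20 RPKM. Fabp4, the adipocyte type, was past 3-fold in colon in the cDNA fragmented libraries, with 54.4 and 204 RPKM, and had 18.4 and 52.9 RPKM in the rRNA-depleted libraries. Beside it, the summed level of 6 adipocyte markers was 53.6 and 191 RPKM, and 27.3 and 149 RPKM, and their part in the Fabp4 values was not tested. Cfd alone gave 118 RPKM of the sum in each colon library. Of the 6 markers, 2 were past 3-fold in colon in the cDNA fragmented and 1 in the rRNA-depleted libraries. Cidec was higher in small intestine in the cDNA fragmented libraries (31.9 and 27.5 RPKM). Of 5 other acyl-CoA binding genes, Acbd4 was past 3-fold in small intestine in both protocols, with 18.9 and 3.01 RPKM, and 46.1 and 5.95 RPKM.

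Acsl3, a long-chain acyl-CoA synthetase like Acsl5, was the single gene of 6 other synthetases past 3-fold in colon in both protocols, with 2.96 and 29.8 RPKM, and 9.58 and 102 RPKM. In cDNA fragmented colon Acsl3 was higher than Acsl5 per length, and likewise in the rRNA-depleted colon library (29.8 against 22.6 and 102 against 58.3 RPKM), whereas in both small intestine libraries Acsl5 was the higher one. None of the 4 other Slc27a genes was past 3-fold, with Slc27a1 the highest at 0.493 and 1.99 RPKM, and 4.57 and 10.2 RPKM. Of 5 receptors and membrane proteins of fatty acid uptake none was past 3-fold in both protocols. Cav1, a coat protein of caveolae, had the highest single value of these and was past 3-fold in rRNA-depleted colon, with 24.04 and 39.4 RPKM, and 8.49 and 99.99 RPKM. Cd36, the fatty acid translocase, was past 3-fold in small intestine in the cDNA fragmented libraries, with 32.0 and 8.88 RPKM, and had 32.5 and 14.1 RPKM in the rRNA-depleted libraries.

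**Figure D5:**
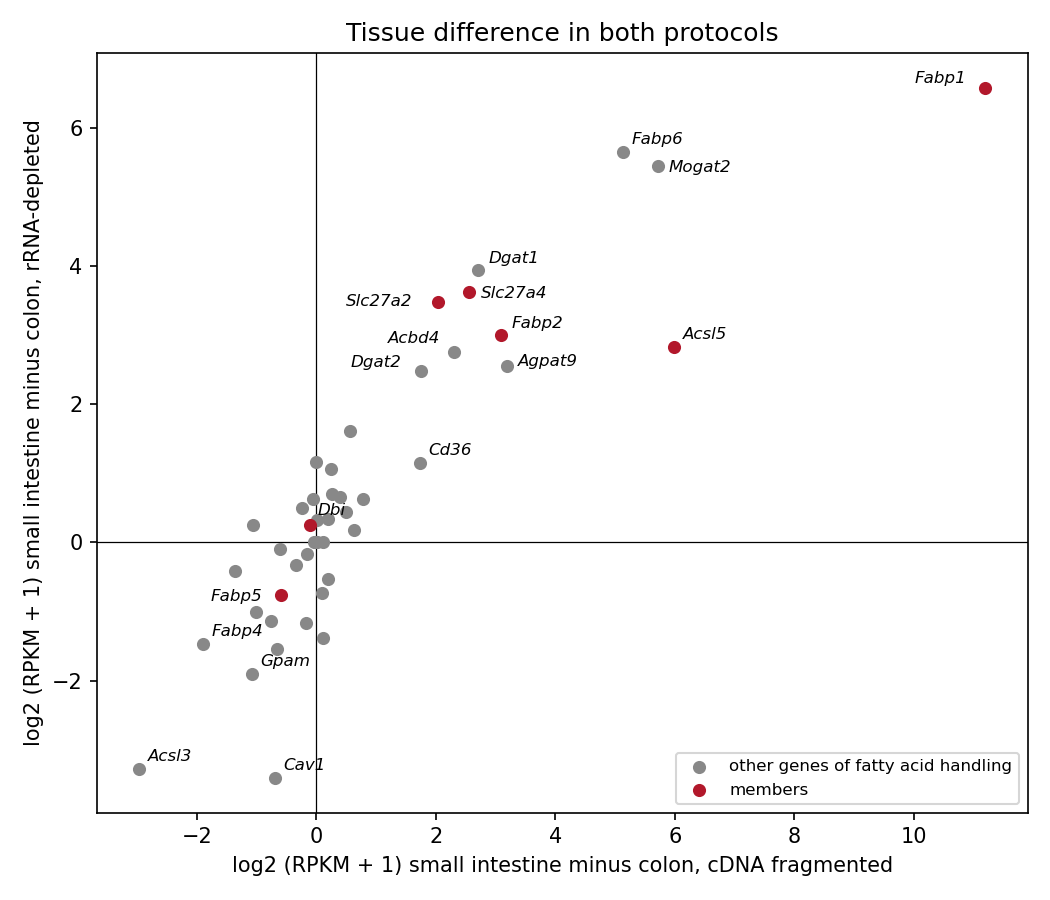
Difference of log2(RPKM + 1) between small intestine and colon in the cDNA fragmented libraries (horizontal) and the rRNA-depleted libraries (vertical) for the 7 genes (red) and 39 other genes of fatty acid handling (grey). Fabp1, Fabp2, Acsl5, Slc27a2 and Slc27a4 lie in the upper right with Mogat2, Fabp6, Dgat1, Dgat2, Acbd4 and Agpat9, and Acsl3 lies at the lower left.

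Genes with the most similar pattern were taken by the Euclidean distance between the 4 values of log2(RPKM + 1), each centred on the gene's own mean, among 9572 genes with at least 50 reads in each protocol. For Slc27a2 the nearest gene was Slc27a4 (distance 0.42), followed by 5730469M10Rik (0.58) and 2010001E11Rik (0.60). Slc27a4 was nearest to Cndp2 (0.29), 2010001E11Rik (0.31) and 5730469M10Rik (0.35). Acsl5 was nearest to Dpp4 (0.33), a brush border peptidase, which had 370 and 7.07 RPKM, and 128 and 16.8 RPKM, and then to Bcl2l15 (0.79) and Tmem86b (0.84).

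Fabp2 had no close neighbour, with Psmb8 (0.79), Tm4sf4 (0.81) and St3gal4 (0.85) as the nearest genes. Fabp1 was nearest to Defa17 (0.99) and AY761184 (1.09), both of the defensin family, and to Apoc3 (1.11), an apolipoprotein. Of the exon windows of Defa17 and AY761184, 89.5% and 84.5% had a near copy in other genes, so their values are uncertain. Dbi was near to Aifm1 (0.10) and Ndufs4 (0.34). The genes nearest to Fabp5 were Psmb1 (0.06), Sra1 (0.06) and Ppie (0.11), but Fabp5 itself had 2 and 8 rRNA-depleted reads, under the minimum set for the compared genes, so its distances carry a large counting error. These distances rest on 4 libraries and describe the pattern only.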

How the data were processed

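Per the file headers and the tables deposited with them, the authors matched 35 colours per SOLiD read with up to 3 mismatches to RefSeq exon blocks of mm9 and to exon junctions, and deposited the position, strand and mismatches of each uniquely placed read. The deposited tables hold positions and no expression values. Reads were counted here on 20798 genes by start position, with 3 bases of tolerance at block borders, named by GENCODE M1 (NCBIM37, the same assembly). RPKM, exact Poisson intervals for levels, Clopper-Pearson intervals for ratios and shares and the study's 3-fold rule were calculated in Python 3.11.15 with SciPy 1.17.1. Intervals for log2 differences between the protocols were not exact and used a normal approximation from the read counts. A gene counted as present when its RPKM exceeded 0.01 and its reads began at 2 or more positions. The planned quasi-likelihood fit on counts was not run here, because the deposited columns hold read positions and count models were kept to deposited counts. It was replaced by limma 3.58.1 (R 4.3.3) on log2(RPKM + 1) with protocol as a term and TMM scaling, for genes with at least 10 reads in 2 libraries, with Benjamini-Hochberg adjustment over all genes tested. The limma step was tested on simulated data with equal tissue differences in both protocols. That test does not cover disagreement between the protocols. The 7 genes, the lists and the rules were chosen with earlier results of these data known. Genes outside the 7 were named when past 3-fold in the same direction in both protocols or, where a list had none, by the highest level, and the 3 nearest genes by pattern were named for each of the 7. For Dbi, 1 of these genes and the sequence before the start are not reported here. Fabp4, Cd36, Gpam and the Defa17 copies were named or checked after their values were seen. Alternatives are given in the closing section.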

Additional observations from a re-analysis of the deposited data

How the results depend on the processing

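Each protocol kept 5 genes past 3-fold in small intestine and 0 in colon with a penalty of 0.1 RPKM, with median-of-ratios or TMM scaling, with at most 1 colour mismatch, with reads inside exons only, with sense reads only (rRNA-depleted) and over the 3′ part of the exonic length. Start points in place of reads gave 4 in the cDNA fragmented libraries, without Fabp2, and 5 in the rRNA-depleted ones. Most start points of Fabp2 were occupied in both cDNA fragmented libraries (86.5% and 78.0% of all exonic bases on both strands, which understates the occupancy). Its ratio by start points thus could not reach 3-fold there. This ceiling also enters the limma fit with start points. The median-of-ratios and TMM factors raised each ratio. They shifted the log2 baseline by -0.40 and -0.34, and by -0.35 and -0.32, in the cDNA fragmented and rRNA-depleted libraries, and the cDNA fragmented ratio of Dbi became 1.22 and 1.18. With TMM the genes past 3-fold were 558 in small intestine and 375 in colon (cDNA fragmented) and 750 and 651 (rRNA-depleted), against 448 and 527, and 560 and 996. In the limma fit 5 genes passed with library size only, with no filter beyond 1 read, with start points and with median-of-ratios factors, an alternative added after seeing the data. With start points the fitted log2 difference fell from 3.32 to 1.19 for Fabp2 and from 9.13 to 4.57 for Fabp1. It fell from 4.68 to 2.14 for Acsl5 and from 3.34 to 2.47 for Slc27a4, and for Slc27a2 it was 2.97 against 2.94. Over all genes limma called 686 towards small intestine and 760 towards colon, but 537 and 992 with library size only. The split turned with median-of-ratios factors (717 and 681), with no filter beyond 1 read (567 and 560) and with start points (895 and 744). The DESeq2 Wald alternative was not run. The fit compared the tissues within each protocol, and the labels give no other pairing. Depth limited Fabp5, with 2 and 8 rRNA-depleted reads, and Fabp1 and Slc27a2 in rRNA-depleted colon, with 9 and 12 reads.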
